A study of Mus musculus with 24 samples.

Results

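Mir185 is the gene of the microRNA precursor miR-185, and Tango2 is the protein-coding gene within which it lies. The pair was taken as every row of the deposited table whose single gene symbol is Mir185 or Tango2. This gave 1 probe set for Mir185 (10438338) and 1 for Tango2 (10438328), so 2 genes of 18820 measured. Both lie in the segment of chromosome 16 deleted in Df(16)A mice, so the mutants carry a single copy of each.

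The arrays compare the prefrontal cortex of 12 mice heterozygous for the deletion (Df16(A)+/-, titled MUT) with that of 12 wild-type littermates (WT). All were males 8 weeks old on a C57BL6/J background, and the deletion, which models the human 22q11.2 microdeletion, is carried in every cell of a mutant. Total RNA was extracted with a kit that retains short RNA and was labelled as whole-transcript cDNA for an Affymetrix array. Values are RMA levels on the log2 scale, 1 per probe set and mouse, where a difference of -1 is a halving. In whole tissue, fewer cells of a type and less RNA per cell cannot be told apart.

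A microRNA gene inside a protein-coding host is usually transcribed as part of the host's primary transcript. The nuclear enzyme Drosha and its partner Dgcr8, itself a gene of the same deletion, cut the hairpin out, and Dicer then cuts the hairpin into the mature microRNA, which represses messenger RNAs that match its seed. A whole-transcript row named to a precursor does not separate the primary transcript from the hairpin, and it does not measure mature miR-185. Where the probes of the Mir185 row lie is not given in the sources used here, so whether they reach beyond the hairpin into Tango2 intron is unknown; every Mir185 value below is that of the row so named and may include intron RNA without the hairpin. Probe positions of the Tango2 row are not given either, so the rows of precursor and host may measure different RNA, spliced or unspliced. Tango2 was found in a screen in Drosophila cells for genes that shape the Golgi apparatus. In humans, loss of both copies of TANGO2 causes metabolic crises with muscle breakdown and arrhythmia, and its relative in Caenorhabditis elegans takes part in the movement of heme. In this mouse line, lowered miR-185 is known for releasing Emc10 from repression.

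The Mir185 hairpin, 65 bases long, is shown because it is the sequence for which the Mir185 row is named. In RefSeq (GRCm38.p6) it lies at chr16:18327401-18327465 on the minus strand, within Tango2 and on the same strand. It lies downstream of all 3 transcript starts that RefSeq gives for Tango2, at 16445, 16467 and 20633 bases from them. Unspliced RNA from any of these starts that extends through the gene therefore contains the hairpin, given below 5′ to 3′ with the mature miR-185-3p in capitals.
Mir185 hairpin: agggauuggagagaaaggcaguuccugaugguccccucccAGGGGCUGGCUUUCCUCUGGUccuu
The RefSeq listing used here gives miR-185-3p as the only mature product of Mir185. Any product of the hairpin's other arm, and its seed, were therefore not examined. The mature miR-185-3p has 21 bases, and its seed (bases 2 to 8) is in capitals.
mmu-miR-185-3p: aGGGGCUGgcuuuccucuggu
Of 1738 mature mouse sequences in the RefSeq table, 1 other, from Mir7048, has the same 7-base seed, and that gene has no row among the 18820 genes. G and C make up 58.5% of the hairpin, against a median of 47.6% over the 264 measured precursors matched to a single hairpin sequence.

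The first question was how far the host fell with 1 copy lost. Tango2 lay between 10.09 and 10.26 in the 12 mutants, with a median of 10.22, against 10.87 to 11.04 in the 12 wild types, with a median of 10.97. The groups did not overlap: all 12 mutants lay below all 12 wild types, as was the case for 0.106% of all genes. The mean was 10.2 ± 0.06 in mutants and 10.97 ± 0.05 in wild types (SD, n = 12 each). The log2 change, mutant minus wild type, was -0.77 ± 0.02 (SE), with a 95% interval of -0.82 to -0.72, which is a level of 58.6% of wild type (limma, adjusted p = 1.1e-17). The interval does not reach -1, the value of a halving; none of the other called genes of the segment reached it either, their lowest value being -0.88. Of all genes tested, 0.228% were called lower in mutants by this test and 0.531% higher. Tango2 had the third smallest p-value over all genes.

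The Mir185 row did not fall as far as the Tango2 row. Mir185 lay between 7.39 and 7.75 in mutants, with a median of 7.6, against 7.42 to 8.13 in wild types, with a median of 7.79. The groups overlapped: 11 of 12 mutants lay within the wild-type range, and 5 wild types lay within the mutant range. All 12 mutants nevertheless lay below the wild-type median, which held for 0.978% of all genes, and 7 wild types lay above every mutant. The mean was 7.61 ± 0.11 in mutants and 7.77 ± 0.21 in wild types (SD, n = 12 each). The log2 change was -0.16 ± 0.06 (SE), a level of 89.5% of wild type. Its 95% interval ran from -0.29 to -0.03 and so reached neither -1 nor the value of Tango2. Mir185 did not pass the test over all genes (limma, adjusted p = 0.32; unadjusted p = 0.0204). An unadjusted p under 0.05 with a lower mutant level was found for 5.82% of all genes, so that value is not rare among them.

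**Figure D1:**
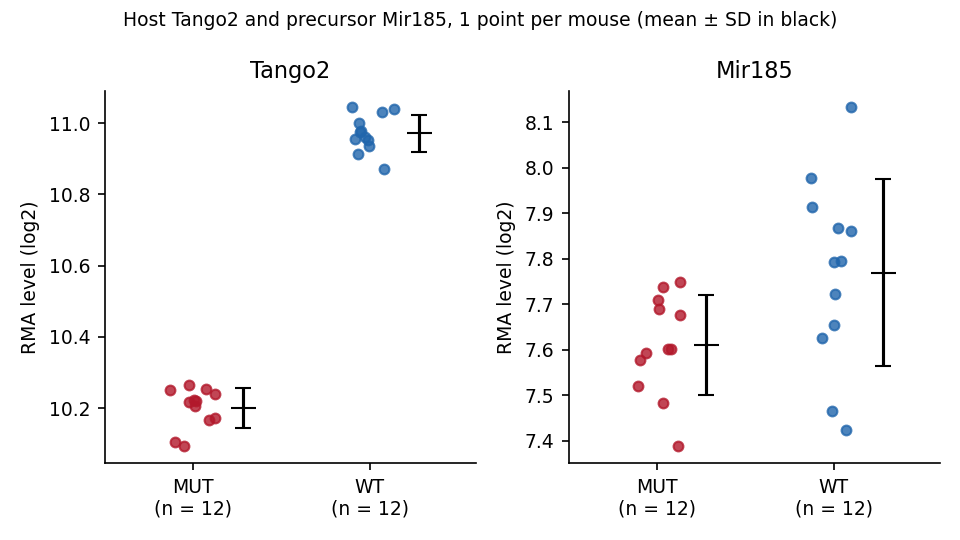
Levels of Tango2 (left) and Mir185 (right) in each mouse, as RMA values on the log2 scale; points are mice, MUT in red and WT in blue, and black bars give the mean ± SD of 12 mice. The Tango2 groups are apart, at 10.09 to 10.26 in mutants and 10.87 to 11.04 in wild types, while the Mir185 groups overlap.

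The spread of Mir185 differed in size between the genotypes, with a range of 0.36 in mutants and 0.71 in wild types. For Tango2 the range was 0.17 in both. The wild-type SD of Mir185 lay at the 68th percentile of the 303 measured precursors and the mutant SD at the 9.24th percentile. The medians over the precursors were 0.17 in mutants and 0.18 in wild types, so the mutants were the narrow group for Mir185. This difference in spread was seen in the values and was not tested. The lowest mouse of each genotype was replicate 12, at 7.39 in the mutant and 7.42 in the wild type; the highest were mutant replicate 1 and wild-type replicate 6. The labels do not say that a number marks a litter.

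Whether precursor and host differed in their change was tested per mouse, on the Mir185 value minus the Tango2 value. Levels of different probe sets cannot be compared with each other, so only the shift of this quantity between genotypes has a meaning. It lay between -2.82 and -2.42 in mutants, with a median of -2.58, against -3.62 to -2.83 in wild types, with a median of -3.19. Every mutant was above every wild type. Of single genes, 0.112% had levels without overlap in that direction. That share is no background for this quantity, because Tango2 alone already separated the genotypes. A row with no change of its own would also shift upward against Tango2. The mean was -2.59 ± 0.12 in mutants and -3.2 ± 0.21 in wild types (SD, n = 12 each), a shift of 0.61 ± 0.07 (SE) with a 95% interval of 0.46 to 0.76. Relative to its host, the precursor row was therefore 1.53-fold higher in mutants (two-sided permutation test, p = 1e-05, the lowest value that 100000 resamples allow). Adjusted over the 3 per-mouse shifts tested, p was 1.5e-05. Within arrays 1 to 12 (7 mutants, 5 wild types) the shift was 0.66, and within arrays 13 to 24 (5 mutants, 7 wild types) it was 0.53; the number is the running array number in the labels.

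Mir185 was next set against the other microRNA precursors of the same mouse. The mean over the 302 precursor genes measured outside the deletion was 5.82 ± 0.03 in mutants and 5.64 ± 0.07 in wild types (SD, n = 12 each), a difference of 0.18. Of these 302, 59 rose, none fell and 243 did not pass (limma), where 0.531% of all genes were called higher. An unadjusted p under 0.05 was found for 132 of them and, in either direction, for 11.9% of all genes; the median log2 change of the 302 was 0.11. Mir185 minus that mean lay between 1.62 and 1.9 in mutants, with a median of 1.81, against 1.9 to 2.4 in wild types, with a median of 2.12. Of the mutants, 11 of 12 lay below every wild type. The shift was -0.34 ± 0.05 (SE), with a 95% interval of -0.44 to -0.23, which puts Mir185 at 0.793 times its wild-type relation to the other precursors (two-sided permutation test, again at the smallest possible p = 1e-05; adjusted p = 1.5e-05). Mir185 was thus lower in mutants relative to the other precursors. The shift joins its own change of -0.16, which did not pass, with the difference of 0.18 in their mean. Within arrays 1 to 12 the shift was -0.3 and within arrays 13 to 24 it was -0.39.

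Among the 303 precursors Mir185 had the third lowest log2 change. The lowest were Mir378a, within the gene of a metabolic coactivator, at -0.31 ± 0.11 (SE), and Mir32 at -0.16 ± 0.08; Mir297b followed Mir185 at -0.16 ± 0.07 and Mir339 at -0.11 ± 0.11. None of these passed the test (limma, adjusted p = 0.242, 0.405, 0.38 and 0.715). Of 70 precursors whose rows lay within 1 log2 unit of the mean value of the Mir185 row, a grouping by array signal and not by abundance, 27 rose, none fell and none had a lower log2 change than Mir185. Their median was 0.24 and their lowest value -0.07. Set against the mean of these 70, Mir185 shifted by -0.45.

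**Figure D2:**
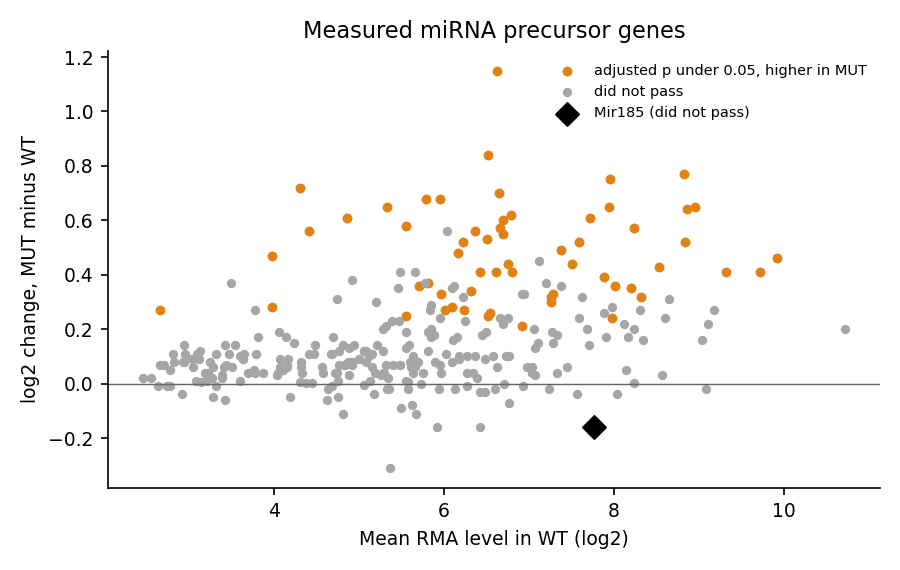
The log2 change, mutant minus wild type, of 303 precursor genes (vertical axis) against their mean wild-type RMA level on the log2 scale (horizontal axis); orange points rose, grey points did not pass and the black diamond is Mir185. Mir185 lies at 7.77 and -0.16, below all 70 precursors whose rows are within 1 log2 unit of its value.

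A microRNA gene inside a coding gene offers the closest comparison for Mir185, although hosts outside the deletion lost no copy. By RefSeq positions and strands, 81 measured precursors outside the deletion lie within measured coding hosts. Mir10b lies within both Hoxd3 and Hoxd4 and was counted once, with Hoxd3 (precursor minus host 0.02; with Hoxd4, -0.05), which leaves 66 hosts. Of the 81 precursors 15 rose and none fell, and 5 of the hosts rose and none fell (limma, all genes). The precursor's change minus the host's was above 0 in 69 of the 81 pairs, with a median of 0.09 and a range of -0.26 to 0.57. The value for Mir185 and Tango2, 0.61, lay above all 81, although its interval of 0.46 to 0.76 includes the highest of them. On the host side, Tango2 changed by -0.77, while the other 66 hosts lay between -0.11 and 0.33. With a host at -0.77, a precursor with no change of its own would also have lain above all 81. The rank of this pair therefore does not describe the precursor alone.

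The 5 pairs whose precursor rows are nearest to Mir185 in array signal show the same order of values. Mir128-2, of a brain-enriched microRNA, rose by 0.62 ± 0.11 (SE) while its host Arpp21, a neuronal phosphoprotein, had 0.05 ± 0.03. Mir330 rose by 0.32 ± 0.05 and its host Eml2, a microtubule-binding protein, had 0.03 ± 0.03 (limma, adjusted p = 0.00283 for Mir128-2 and 0.000364 for Mir330). The other three precursors did not pass: Mir218-1 had 0.36 ± 0.14 and its host Slit2, an axon guidance ligand, 0.09 ± 0.03. Mir7-1 had 0.19 ± 0.05 within Hnrnpk, an RNA-binding protein, and Mir690 0.17 ± 0.11 within Fgf12, a regulator of sodium channels. In all 5 the precursor's value was above its host's, by 0.18 to 0.57; those differences were not tested pair by pair.

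**Figure D3:**
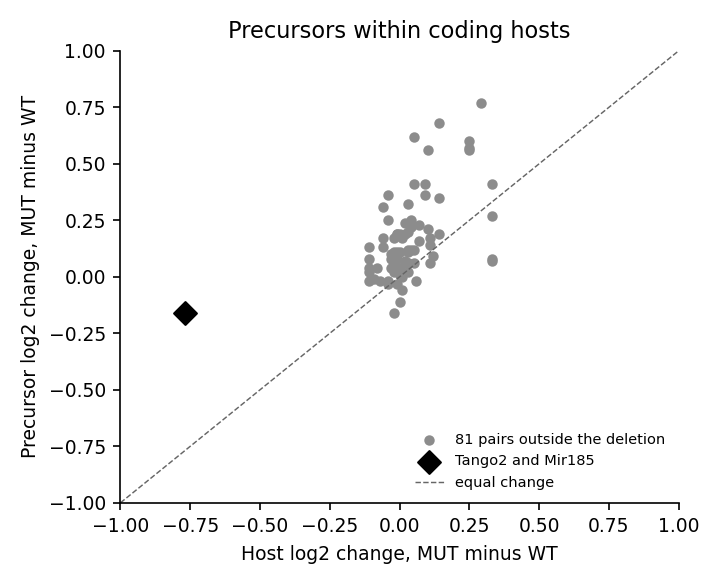
The log2 change of 82 precursors (vertical axis) against that of the coding host in which each lies (horizontal axis), both mutant minus wild type; the dashed line marks equal change. The black diamond, Tango2 and Mir185, lies at -0.77 and -0.16, apart from the 81 grey pairs on the host axis alone.

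Among the genes of the deletion, Tango2 had one of the larger decreases and Mir185 one of the smallest. Of 26 other measured genes listed for the segment, 21 fell, none rose and 5 did not pass, with a median log2 change of -0.64. Tango2 had the sixth largest decrease; Ufd1, which works with the p97 ATPase in protein degradation, and Slc25a1, the mitochondrial citrate carrier, had the largest, each at -0.88. Next to Tango2, Dgcr8 changed by -0.54 ± 0.03 (SE), the catenin gene Arvcf by -0.61 ± 0.04 and the tRNA methyltransferase gene Trmt2a by -0.68 ± 0.04. Array signal differed among the segment genes, with wild-type means of 10.97 for Tango2 and 7.77 for Mir185. Of the genes that fell, Gnb1l (mean 6.26) and Cdc45 (6.25) had the smallest decreases, -0.27 and -0.3. Txnrd2, with a mean of 7.3, had -0.64. The part of array signal in the size of a change was not tested. Per mouse, Tango2 minus the mean of the 21 others that fell was 2.09 ± 0.05 in mutants and 2.2 ± 0.06 in wild types (SD, n = 12 each), a shift of -0.11 ± 0.02 (two-sided permutation test, p = 0.00014; adjusted over the 3 shifts, 0.00014). The 21 were chosen by the same contrast, so the shift is given as a size and says only that Tango2 lay below their mean.

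The 5 other segment genes that did not pass were Tbx1 (-0.17), a transcription factor of heart and pharyngeal development, the testis kinases Tssk1 (-0.06) and Tssk2 (-0.03), the homeobox gene Gsc2 (0.06) and the B-cell gene Vpreb2 (-0.001). Their wild-type means ran from 5.1 (Tssk1) to 6.56 (Tbx1), below the median level of 7.58 over all genes. Without a detection call, whether these dim rows measured RNA of their genes is unknown.

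**Figure D4:**
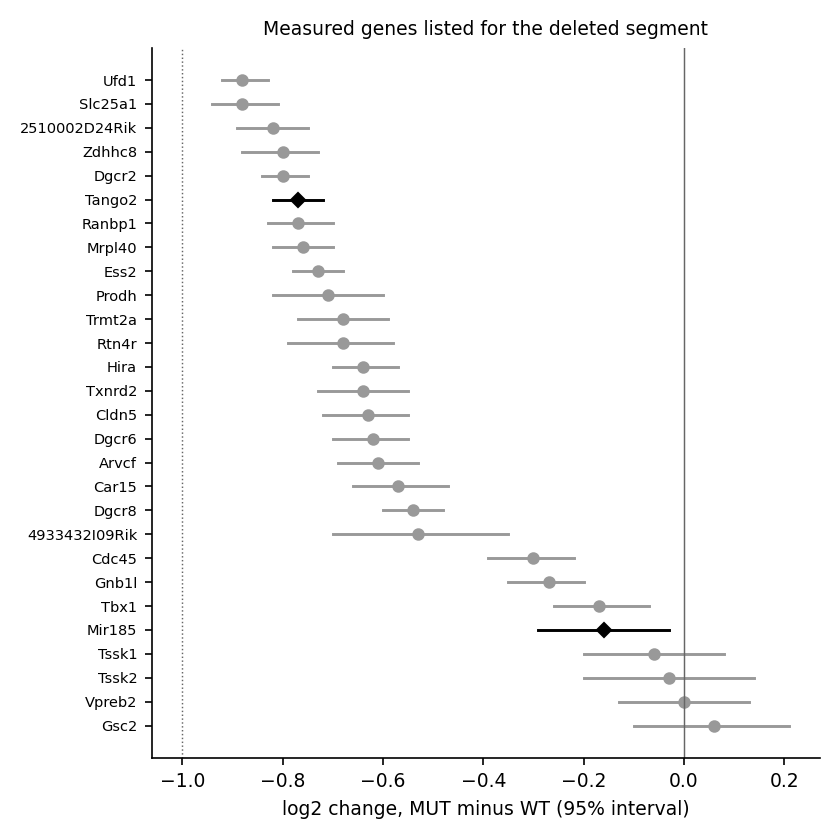
The log2 change, mutant minus wild type, of 28 measured genes listed for the deleted segment, with 95% intervals; black diamonds mark Tango2 and Mir185, grey points the others, and the dotted line stands at -1, a halving. Tango2 lies at -0.77 among the larger decreases and Mir185 at -0.16, its interval ending at -0.03.

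Within a genotype, Mir185 did not vary with its host from mouse to mouse. The genotypes form separate clusters in Tango2, so no pooled value is given. Over 12 mutants the correlation was r = 0.02 (permutation p = 0.956) and rho = 0.24 (permutation p = 0.457). Over 12 wild types r was -0.05 (permutation p = 0.876) and rho was 0.03 (permutation p = 0.94). Without the 2 mice farthest from the median of Tango2, r was 0.17 in mutants and -0.16 in wild types. The host varied over only 0.17 in each genotype, which limits what such a correlation can show.

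Mir185 varied instead with the other precursors, a relation examined after these values were seen. Against the mean of the 302 others, r was 0.76 over 12 mutants (permutation p = 0.00439) and 0.87 over 12 wild types (permutation p = 0.00022). Adjusted over the 16 relations computed, these were p = 0.0351 and p = 0.00352. The rank correlations were 0.66 in mutants (permutation p = 0.0237, adjusted p = 0.095) and 0.76 in wild types (permutation p = 0.00578, adjusted p = 0.0908), so neither passed after adjustment. Without the 2 mice farthest out on the precursor mean, r was 0.81 in mutants and 0.72 in wild types. After quantile normalization r did not pass in mutants, at 0.43 (permutation p = 0.165), and was 0.96 in wild types, whereas after median centring it was 0.75 in mutants and 0.9 in wild types (permutation p = 0.00554 and 0.0001). Over the 7 mutants of arrays 1 to 12 it was 0.57 (exact permutation p = 0.198), and over the 7 wild types of arrays 13 to 24 it was 0.89 (exact permutation p = 0.00794). The remaining sets of arrays hold 5 mice of a genotype, too few for a value. The first principal component of the deviations over all genes, an array-wide measure, had r = -0.07 with Mir185 in mutants and 0.26 in wild types (permutation p = 0.823 and 0.406). With the precursor mean it had -0.13 in mutants and 0.6 in wild types (permutation p = 0.684 and 0.0417; adjusted p = 0.912 and 0.12).

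**Figure D5:**
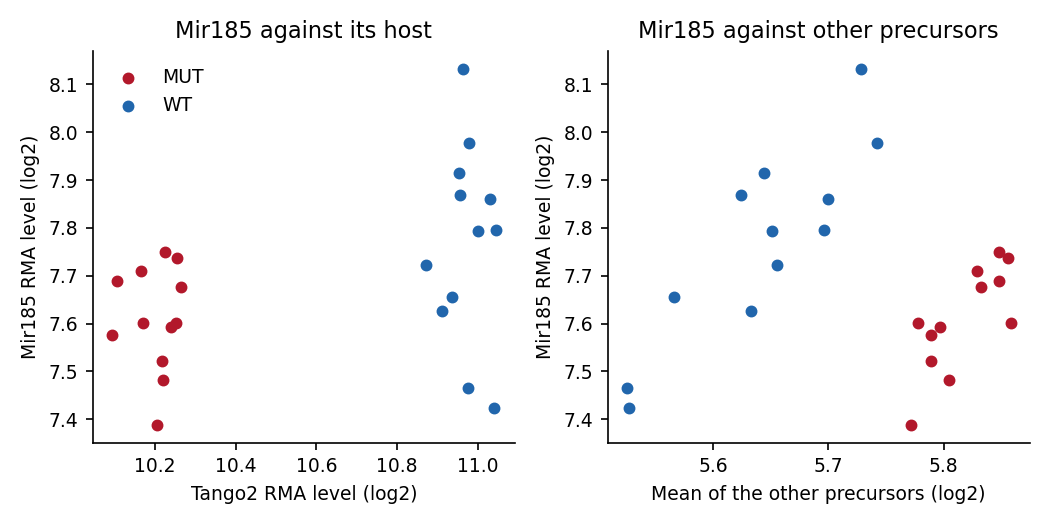
Mir185 in each mouse against Tango2 (left) and against the mean of 302 other precursors (right), all as RMA values on the log2 scale, MUT in red and WT in blue. Within a genotype there is no trend with the host (r = 0.02 and -0.05), while Mir185 is higher where the other precursors are (r = 0.76 and 0.87), with the mutants shifted to the right and down.

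The genes whose deviations from the genotype means were most like those of Mir185 over the 24 mice were ranked by the size of Pearson's r, as a description over mice that share arrays and scaling and without a test. Of the 5, 3 were precursors: Mir341 (r = 0.86) and Mir411 (0.85), both of an imprinted microRNA cluster on chromosome 12, and Mir9-1 (0.83), a locus of the brain microRNA miR-9. The others were Bag4, a chaperone regulator, at -0.84 and Tmem270, a membrane protein gene, at 0.82. Mir9-1 rose by 0.64 ± 0.07 (SE; limma, adjusted p = 1.43e-06), while Mir341 had 0.2 ± 0.06 and Mir411 0.32 ± 0.11, neither past the test. The mature products of these 3 precursors are shown, with the seed in capitals, to set them beside miR-185-3p.
mmu-miR-341-5p: cGGUCGGCcgaucgcucgguc
mmu-miR-341-3p: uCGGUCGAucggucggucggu
mmu-miR-411-5p: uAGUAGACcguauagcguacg
mmu-miR-411-3p: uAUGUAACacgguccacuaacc
mmu-miR-9-5p: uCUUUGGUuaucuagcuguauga
mmu-miR-9-3p: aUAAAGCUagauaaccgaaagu
None of the 6 shares its seed with miR-185-3p or with another of the 6. In RefSeq (GRCm38.p6) miR-341-5p lies at chr12:109611521-109611541, miR-411-5p at chr12:109710190-109710210 and miR-9-5p of this locus at chr3:88215613-88215635, all on the plus strand, so the 3 precursors come from 2 other chromosomes.

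For Tango2 the most alike genes were no precursors. They were Fez2 (r = 0.79), a relative of an axon outgrowth protein, Sf3b1 (0.73), a splicing factor, Get1 (0.71), a receptor in the insertion of tail-anchored membrane proteins, Synpo (0.71), an actin-binding protein of dendritic spines, and Naa30 (-0.71), an acetyltransferase subunit. None of the 5 passed the test between genotypes. Between Mir185 and Tango2 themselves the same measure was -0.02.

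Messenger RNAs reported as targets of miR-185, mostly in human cell lines, were listed from general knowledge, with the earlier result for Emc10 known. They were not matched to the seed shown above, which is that of a single arm of the hairpin. Of 17 measured, 1 rose, none fell and 16 did not pass, with a median of -0.003 against -0.001 over all genes. An unadjusted p under 0.05 (limma) was found for 4 of the 17, Emc10 included, a larger share than the 11.9% of all genes. Because Emc10 was listed with its result known, this share is not read as an excess. Of the 17, 11 had values below 0, where 51% of all genes did. The one that rose was Emc10, part of a complex that inserts proteins into the endoplasmic reticulum membrane, at 11.2 ± 0.04 in mutants and 10.81 ± 0.06 in wild types (SD, n = 12 each), a log2 change of 0.39 ± 0.02 (SE; limma, adjusted p = 1.42e-11). The next by p-value were Scarb1, a lipoprotein receptor, at -0.08 ± 0.03, Ntrk3, a neurotrophin receptor, at 0.08 ± 0.03, and Hmga2, a chromatin protein, at 0.18 ± 0.07 (adjusted p = 0.268, 0.281 and 0.33). Atp2a2, the calcium pump of the endoplasmic reticulum, had -0.005 with an interval of -0.05 to 0.04. Rhoa and Cdc42, small GTPases that shape dendritic spines, each had -0.02. Within a genotype, mice with more Mir185 had less Emc10, with r = -0.59 in mutants and -0.61 in wild types (permutation p = 0.0449 and 0.0376), but neither passed after adjustment over the 16 relations (adjusted p = 0.12 for both). The rank correlations were -0.55 in mutants and -0.5 in wild types (permutation p = 0.0719 and 0.104). Without the 2 mice farthest out on Mir185, r was -0.4 in mutants and -0.46 in wild types. Emc10 also differed with array order in mutants. It lay between 11.137 and 11.203 in mutant replicates 1 to 7 and between 11.237 and 11.257 in replicates 8 to 12, which were on the later arrays. In wild types the Emc10 values of earlier and later arrays overlapped. The part of array order in the correlation of Mir185 with Emc10 was not tested.

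Genes of the processes tied to Tango2 did not pass the test. Of 73 measured genes of transport between the endoplasmic reticulum and the Golgi apparatus, none rose and none fell, with a median of -0.02 and 8 at an unadjusted p under 0.05, close to the 11.9% of all genes with such a p. The smallest p-values were those of Trappc3 (-0.08), a subunit of a tethering complex, Mia2 (0.21), an export factor at the exit sites, Bet1 (-0.12), a fusion protein, and Tmed9 (-0.08), a cargo receptor (limma, adjusted p = 0.14, 0.217, 0.28 and 0.29). Of 27 measured genes of heme synthesis and handling none passed and 3 had an unadjusted p under 0.05, again close to the share of all genes, with a median of -0.02. Hmox1, which degrades heme, had -0.23 ± 0.06 (SE; adjusted p = 0.114), with means of 7.09 in mutants and 7.32 in wild types; the heme synthesis genes Cpox and Alad each had -0.08 and Blvrb, which reduces biliverdin, had -0.07. Of 29 genes of fatty acid oxidation and coenzyme A metabolism none passed and none had an unadjusted p under 0.05. The median was -0.03, with Etfa, an electron carrier of fatty acid oxidation, at -0.11, Cpt2, which imports fatty acids into mitochondria, at -0.13, Pank3, of coenzyme A synthesis, at -0.06 and Acot1, a thioesterase, at 0.14. Most values were small but below 0: 59 of the 73 transport genes, 20 of the 27 heme genes and 23 of these 29. Over all genes 51% were below 0. This lean of the lists was not tested.

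Of 24 measured genes of microRNA processing and function, 1 fell, none rose and 23 did not pass. An unadjusted p under 0.05 (limma) was found for 7 of the 24, Dgcr8 included, a larger share than the 11.9% of all genes. The gene that fell was Dgcr8, the deleted member of the list. Adarb1, an RNA-editing enzyme, had -0.07, Tnrc6c, a silencing protein, 0.07 and Lin28a, which blocks let-7 processing, 0.15 (limma, adjusted p = 0.292, 0.317 and 0.32).

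The 24 arrays were alike, with pairwise correlations over all genes of 0.9939 to 0.9974 and array medians of 6.71 to 6.82. Of the cell type markers, none passed among those for neurons (10 measured, median -0.007), astrocytes (7, 0.009), oligodendrocytes and their precursors (9, -0.03), microglia (8, -0.006) or endothelium (7, -0.01). The neuronal marker Rbfox3 had a mean of 11.78 in mutants and 11.8 in wild types. The 4 measured blood and granulocyte markers all had values below 0, from -1.2 for Ngp to -0.05 for Alas2, and none passed. Their summed level on the linear scale lay between 241 and 548 in mutants and between 314 and 2633 in wild types; their part in the values of Mir185 and Tango2 was not tested.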

How the data were processed

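The authors' deposited table holds 1 log2 expression value for each of 35556 probe sets in each of 24 mice; the submitters' processing notes name RMA, without version or genome build. The log2 scale was read from the values (1.82 to 14.49). The number of arrays limits precision, and no detection call is given. Through the platform annotation 21218 probe sets had 1 gene symbol, 1881 several and 12457 none listed; the brightest probe set stood for each of 18820 genes, 18790 of them matched to RefSeq (GRCm38.p6).

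Genotypes were compared with limma 3.58.1 in R 4.3.3 (lmFit, eBayes), adjusted by Benjamini-Hochberg over all genes at 0.05; the step was tested on simulated data. Per-mouse shifts and correlations used two-sided permutation tests with 100000 resamples, exact under 10 mice; intervals are 95%. Named genes followed a rule: the members, the genes beside Tango2, the 5 genes most like each member, the 4 smallest p-values of each list, the 5 nearest host pairs and the 5 lowest precursors. Genes named beyond it (Ufd1, Slc25a1, the other segment genes, Mir10b and its hosts, Atp2a2, Rhoa, Cdc42, Rbfox3) were chosen after their values were seen. Members and lists were chosen with earlier results of these data known. Replicate numbers are shared between genotypes, and deviations of same-numbered mice correlated at -0.08 to 0.31 (median 0.1, against -0.01 for different numbers). The labels do not say that a number marks a litter, so the main model holds genotype alone. A replicate block was fitted as an alternative. P-values measure the spread between arrays, each counted as 1 mouse.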

Additional observations from a re-analysis of the deposited data

How the results depend on the processing

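Tango2 kept its direction and its call under all 12 alternatives (log2 change -0.78 to -0.75; adjusted p 3.69e-22 to 2.43e-07) and with each mouse left out (-0.78 to -0.76). Mir185 stayed below 0 and did not pass under any of 12 alternatives (-0.22 to -0.12; adjusted p 0.204 to 0.679) or with any mouse left out (-0.19 to -0.13; adjusted p 0.203 to 0.454); its lowest adjusted p among the alternatives was that of the replicate block (-0.16, adjusted p = 0.204). The per-mouse shifts passed under every alternative: 0.53 to 0.66 for Mir185 minus Tango2, -0.45 to -0.3 for Mir185 minus the other precursors and -0.12 to -0.1 for Tango2 minus the other genes of the segment. With each mouse left out they ran from 0.57 to 0.64, -0.36 to -0.31 and -0.12 to -0.1.

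The correlation of Mir185 with Tango2 changed sign without passing in any setting. In mutants r was -0.01 without replicates 5, 9 and 10 and, as differences within replicate numbers (the replicate block, which serves both genotypes), -0.18. With each mouse left out it ran from -0.11 to 0.17 in mutants and from -0.14 to 0.22 in wild types. In wild types it was 0.08 after quantile normalization and 0.32 after median centring. The correlation of Mir185 with the precursor mean, whose alternatives were chosen after the data were seen, was lost in mutants after quantile normalization (0.43) and in arrays 1 to 12 alone (0.57), and ran from 0.69 to 0.85 in mutants and from 0.83 to 0.9 in wild types with each mouse left out.

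Over all genes 100 were higher and 43 lower. Arrays 1 to 12 alone, with fewer mice, gave 35 and 23, and arrays 13 to 24 alone gave 35 and 22. The count of lower genes was 66 with a mean-variance trend, 66 after the filter on dim genes and 69 with the first component of the residuals added to the model; the cause was not tested. With the replicate block the counts were 110 and 37, and neither member's call changed. Of the 24 mice, 5 correlated best with the mouse of their own number.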
